A study of Bos taurus with 12 samples.

Results

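Cytochrome c oxidase is complex IV, the last enzyme of the mitochondrial respiratory chain. Its nuclear-encoded subunits were described here as a set of 10 genes: COX4I1, COX5A, COX5B, COX6A1, COX6B1, COX6C, COX7A2, COX7B, COX7C and COX8A. A probe was taken as measuring one of these genes when the RefSeq transcript given for it in the array files carried that symbol. By this rule 8 of the 10 genes had probes, 19 in all, out of 12787 genes with a probe on the array. COX5A and COX7C matched no probe and are named only.

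The enzyme passes electrons from cytochrome c to oxygen and pumps protons across the inner mitochondrial membrane, which drives ATP synthesis. Its catalytic core is encoded by mitochondrial DNA, and the nuclear subunits surround that core, hold the enzyme together and adjust its activity. Some nuclear subunits exist as isoforms that differ between tissues. The lactating mammary gland spends much energy on the synthesis and secretion of milk and is rich in mitochondria.

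Mammary gland gene expression was measured in Holstein cows on one-colour (Cy3) Agilent bovine arrays, 1 array per biopsy. The control period (CONT, day 0) was sampled while the cows ate a lactation diet without limit. The restriction period (REST) was sampled in the same cows on day 6 of a feed allowance that covered 50% of their calculated net energy requirement for lactation. Each group held 6 arrays, from the 6 cows named in the labels, whereas the series text counts 5 cows. The study enrolled 6 Holstein cows and excluded 1 of them for mastitis without naming it. By these counts the arrays of that cow would be among those used here, and which cow it was is not known. The cows were multiparous and in mid-lactation, and the biopsies were whole tissue taken from the rear of the udder. REST always followed CONT and no cow was kept on full feed to day 6, so the feed allowance and the passage of time cannot be told apart.

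Normalized signal is given in log2 units relative to the 75th percentile of the array, so that 1 unit is a doubling. It is a level for that probe and was not compared between probes. Each slide carried the CONT and REST arrays of a pair of cows: slide 1 those of cows 1 and 2, slide 2 those of cows 3 and 4, and slide 3 those of cows 5 and 6. Slide 3 was dimmer: the 75th percentile intensity was 73.2 to 117 there against 252 to 390.0 on the other slides, and 41.9 to 48.0% of its spots were well above background against 61.8 to 67.9%. All 19 subunit probes were well above background on all 12 arrays, and no spot was saturated.

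After 6 days of restriction, 6 of the 8 measured subunit genes had fallen: COX7A2, COX6B1, COX7B, COX6C, COX6A1 and COX5B (limma with cow as a block, Benjamini-Hochberg adjusted p under the threshold of 0.1 used in the study). Among all 7930 genes tested by the same rule, 9.27% were called lower. The count moved with the fit: it was 3 without the block, 4 with quantile normalization, 2 with normexp and the 75th percentile shift and 1 without scaling. With no filter on dim probes, 0 of the 8 passed by limma (7 had an unadjusted p under 0.05), whereas the cow as a random block, eBayes with trend and robust settings, and the mean of all probes of a gene each gave 7. Leaving out 1 cow gave 2 (without cow 1 or cow 2), 3 (without cow 4), 4 (without cow 3 or cow 5) or 5 (without cow 6). Over all 19403 tested probes, 16.0% were called in either direction, and 4.31% without the block. The percent changes of the 6 genes ran from −33.1% to −13.9%. The mean of the 8 genes was lower in REST with the 75th percentile shift, whereas without any scaling between arrays, where the median of all tested genes moved up by 0.29, 4 of the 8 means lay above 0. In such whole-tissue samples, fewer cells of a type and less RNA per cell cannot be told apart.

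COX4I1 and COX5B are large nuclear subunits that lie close to the catalytic core. COX4I1, the isoform of subunit IV found in most tissues, spanned 5.51 to 5.77 in CONT (median 5.66) and 5.41 to 5.71 in REST (median 5.56). The ranges overlapped, and no group stood clear of the other. The mean difference was −0.09 ± 0.08 (SE), with limma's adjusted p at 0.476, and it was negative in 5 of 6 cows; background correction by normexp moved it to 0.04 and no scaling to 0.20. COX4I1 therefore showed the smallest difference of the 8 genes and did not pass the test. The same held for its other 3 probes, and the differences of the 4 probes ran from −0.13 to −0.07.

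COX5B, the zinc-binding subunit on the matrix side, spanned 4.54 to 4.92 in CONT (median 4.77) and 4.42 to 4.74 in REST (median 4.52). The groups overlapped, but every cow had the lower value in REST. COX5B fell by 13.9% (−0.22 ± 0.07 SE), just within the threshold (limma, adjusted p = 0.0988); of its other probes one passed and one, at −0.20, did not (adjusted p = 0.124). The COX5B call was lost in 15 alternatives in which the difference stayed negative, among them the leaving out of any 1 cow. It was lost as well without scaling between arrays, where the difference was 0.08 (limma, adjusted p = 0.452).

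COX6A1 and COX6B1 lie where the enzyme's monomers meet, and COX6B1 faces the intermembrane space beside the docking site of cytochrome c. COX6B1 spanned 5.85 to 6.35 in CONT (median 6.14) and 5.47 to 5.72 in REST (median 5.68). Every REST array lay below every CONT array. COX6B1 fell by 29.0% (−0.49 ± 0.09 SE, limma, adjusted p = 0.0194), and its 3 probes, which all passed, gave differences from −0.52 to −0.46.

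COX6A1, the isoform of subunit VIa outside heart and skeletal muscle, had 1 probe. It spanned 3.66 to 4.002 in CONT (median 3.74) and 3.37 to 3.71 in REST (median 3.43). The groups overlapped because cows 1 and 5 were high in both periods, and each cow had its lower value in REST. COX6A1 fell by 18.4% (−0.29 ± 0.07 SE, limma, adjusted p = 0.0428), and without scaling its difference was 0.00.

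The other 4 genes encode small subunits that each cross the inner membrane once. COX7A2, the isoform of subunit VIIa found in most tissues, spanned 4.05 to 4.65 in CONT (median 4.33) and 3.63 to 3.91 in REST (median 3.72). The groups did not overlap, and the fall was the steepest of the 8 genes. COX7A2 fell by 33.1% (−0.58 ± 0.10 SE, limma, adjusted p = 0.0189), and its 3 probes all passed with differences from −0.58 to −0.51.

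COX7B spanned 4.26 to 4.79 in CONT (median 4.58) and 3.74 to 4.20 in REST (median 4.12). The groups did not overlap, and cow 4 in REST lay well below the other REST arrays. COX7B fell by 26.9% (−0.45 ± 0.11 SE, limma, adjusted p = 0.0425); its other probe gave −0.40 and also passed.

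COX6C had 1 probe, which spanned 4.14 to 4.92 in CONT (median 4.50) and 4.06 to 4.34 in REST (median 4.20). CONT was more spread than REST (SD 0.26 against 0.11), the groups overlapped, and cow 6 scarcely moved (−0.02). COX6C fell by 19.4% (−0.31 ± 0.10 SE, limma, adjusted p = 0.0908), a call that 12 alternatives lost, among them quantile normalization (adjusted p = 0.159) and no scaling, where the difference was −0.01.

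COX8A, the isoform of the smallest subunit found in most tissues, spanned 4.74 to 5.02 in CONT (median 4.84) and 4.44 to 4.81 in REST (median 4.68). The groups overlapped, although REST was the lower array in all 6 cows. The mean difference was −0.21 ± 0.07 (SE), close to that of COX5B, but the adjusted p was 0.113 by limma and the gene did not pass; without scaling between arrays the difference was 0.09. Its second probe gave −0.20.

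**Figure D1:**
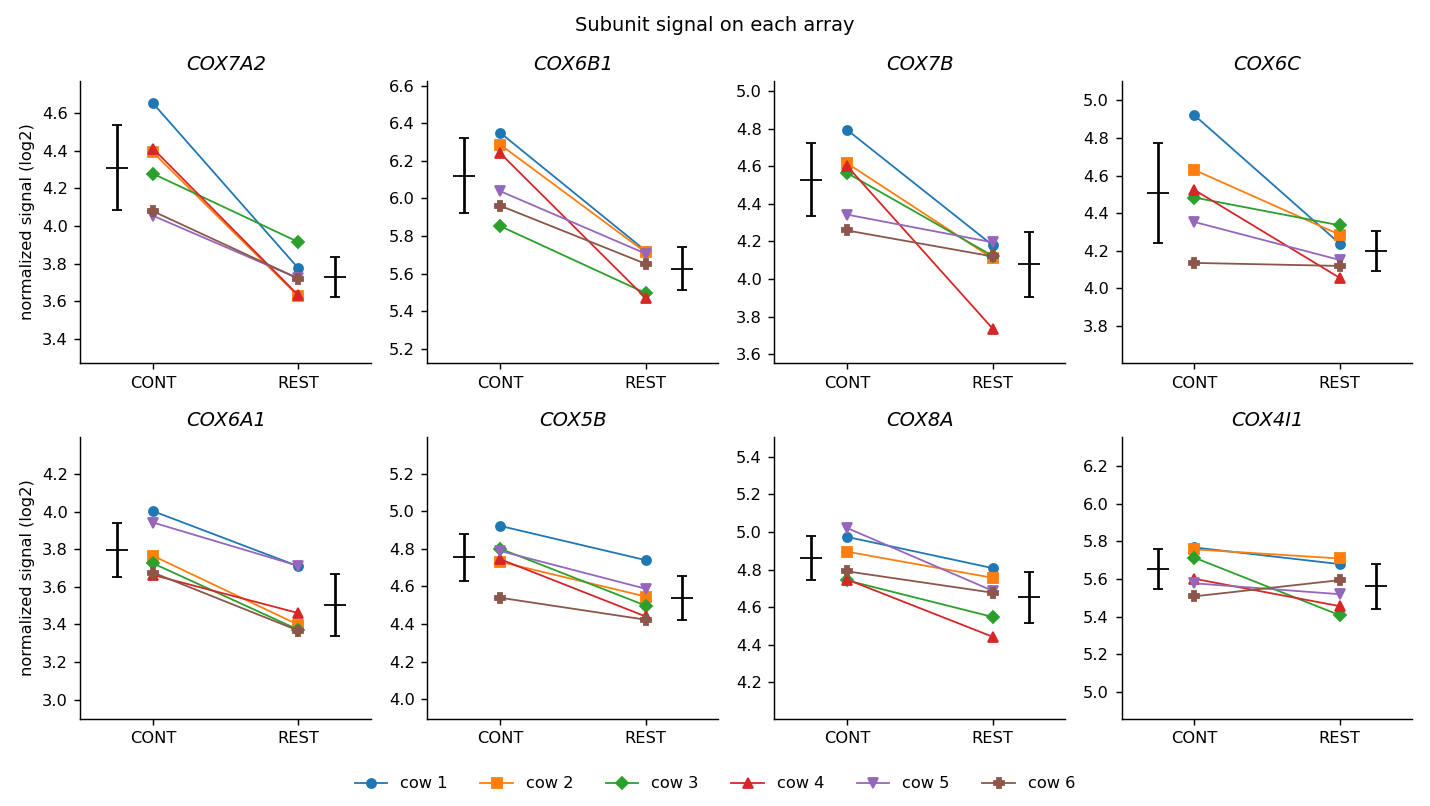
Normalized signal (log2, relative to the array's 75th percentile) of the 8 measured subunit genes in CONT and REST, 1 panel per gene with panels of equal span; lines join the arrays of a cow and the bars beside them give mean ± SD (n = 6). The lines slope down in all 6 cows for every gene except COX4I1, where cow 6 rose by 0.09; without scaling between arrays the mean differences of COX4I1, COX5B, COX6A1 and COX8A were above 0.

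The plot of signal by array shows that 7 of the 8 genes were lower in REST in all 6 cows, a pattern that 10.8% of all tested genes shared. For 3 of the 8 genes, COX6B1, COX7A2 and COX7B, the groups did not overlap at all, against 1.66% of all tested genes. These were also the 3 genes that passed when the pairing by cow was dropped: without the block the adjusted p by limma was 0.0200 for COX7A2, 0.0358 for COX6B1 and 0.0662 for COX7B, and 2.81% of all tested genes were called lower. COX5B (0.257), COX6A1 (0.174) and COX6C (0.217) did not pass in that fit. Over the alternatives run, the adjusted p ranged from 0.00228 to 0.106 for COX7A2, from 0.00334 to 0.125 for COX6B1 and from 0.0110 to 0.306 for COX7B. The ranges of the less firmly placed genes were wider, from 0.04995 to 0.464 for COX5B, from 0.0255 to 0.969 for COX6A1 and from 0.0529 to 0.923 for COX6C.

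**Figure D2:**
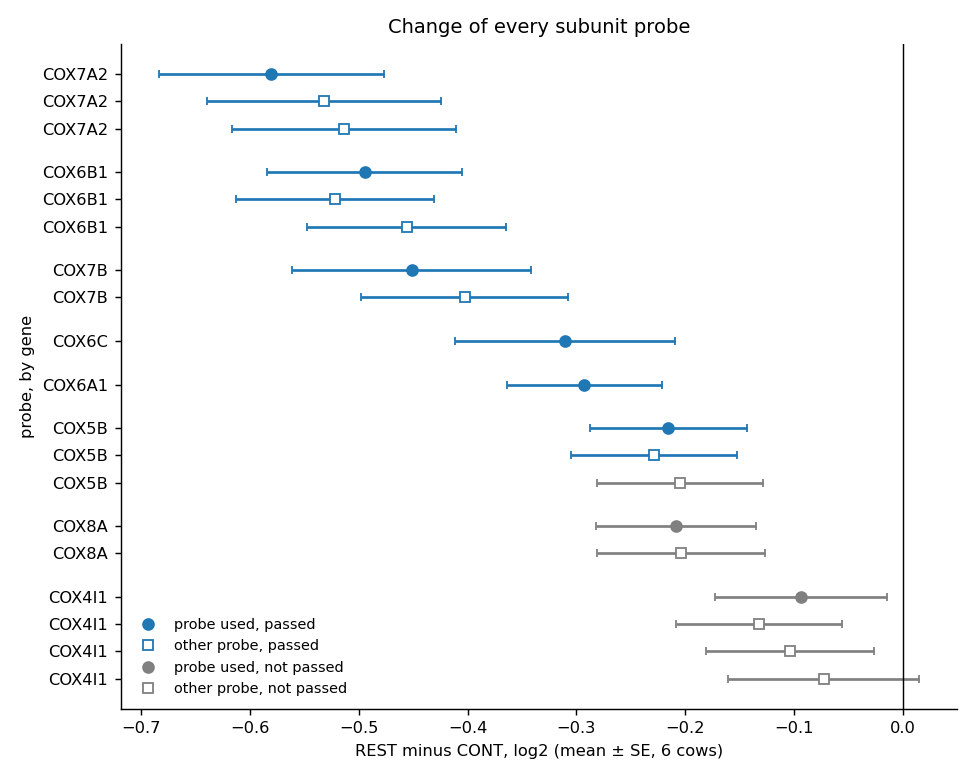
REST minus CONT difference (log2, mean ± SE over 6 cows, cow as a block) for each of the 19 subunit probes, grouped by gene; filled circles mark the probe used for the gene and blue marks those with an adjusted p under 0.1. Probes of 1 gene lie close together, from −0.58 to −0.51 for COX7A2 and from −0.13 to −0.07 for COX4I1, and none lies above 0 with the 75th percentile shift.

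Different probes of 1 gene gave nearly the same difference, as the plot of every probe shows. Of the 19 probes, 12 passed, all lower in REST, against 8.78% of all tested probes; without the block 8 passed, against 2.73%. In 7 of the 19 probes the groups did not overlap, against 1.50% of all tested probes. Probes of a gene share its transcripts, so they check the probe and are not further replicates.

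The size of the difference varied between the 8 genes. Each pair of genes was compared within the cow, which cancels any shift common to an array, by an exact permutation test over the signs of the 6 cows' differences. This comparison was added after the values were seen. The smallest p that 6 cows allow is 0.03125, and 10 of the 28 pairs reached it (exact test, adjusted p = 0.0875 over the 28 pairs).

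COX7A2 was the gene that fell more in 5 of those 10 pairs and COX6B1 in 3, while COX4I1 was the one with the smaller difference in 4. The within-cow difference between COX7A2 and COX4I1 was −0.49 ± 0.28 (SD), with the same sign in 6 of 6 cows. It was −0.40 ± 0.21 between COX6B1 and COX4I1, −0.36 ± 0.25 between COX7B and COX4I1 and −0.20 ± 0.14 between COX6A1 and COX4I1, again in 6 of 6 cows each. COX7A2 also fell more than COX6B1 in 6 of 6 cows, but by a small amount, −0.09 ± 0.11. COX5B and COX8A were not separated (−0.01 ± 0.08, exact permutation p = 0.812), nor were COX6C and COX6A1 (−0.02 ± 0.26, exact permutation p = 0.875). With quantile normalization 8 pairs reached the smallest p, and with an adjusted p of 0.109 in the exact test 0 passed.

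**Figure D3:**
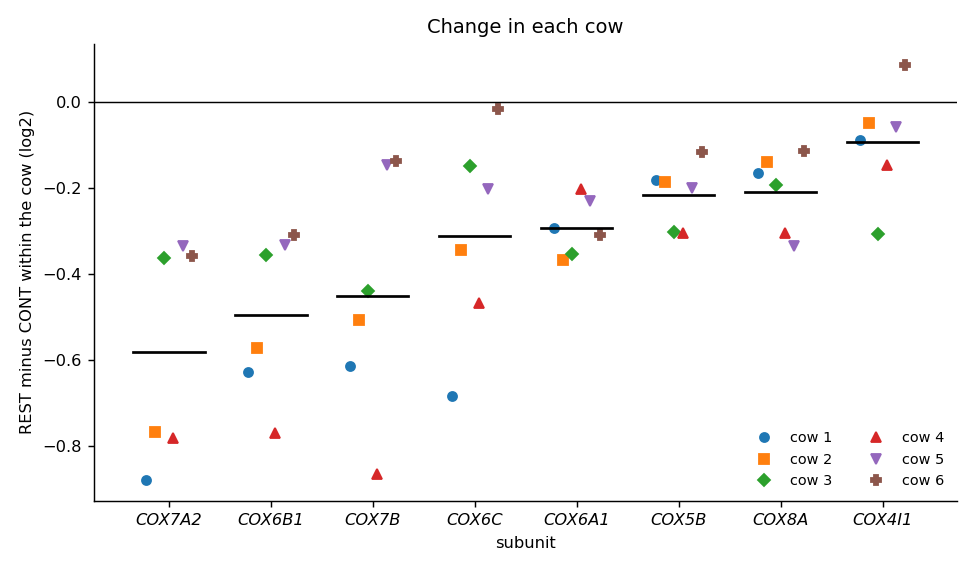
REST minus CONT difference (log2) of each subunit gene in each of the 6 cows, with genes ordered by their mean (black bar). The cows spread from −0.88 to −0.33 for COX7A2 and from −0.37 to −0.20 for COX6A1; the order of genes does not depend on a shift common to an array, whereas without scaling 4 of the means lie above 0.

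The cows differed in how far the subunits moved, as the plot of changes by cow shows. The median over the 8 genes was −0.45 in cow 1, −0.36 in cow 2, −0.33 in cow 3, −0.39 in cow 4, −0.22 in cow 5 and −0.13 in cow 6. Cow 6 had the smallest fall or a rise in 6 of the 8 genes, and cow 4 had the largest fall in 3. By slide, the median was −0.42 on slide 1, −0.31 on slide 2 and −0.19 on slide 3, the dim slide. The part of the dim signal in the smaller values of cows 5 and 6 was not tested.

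Values spread widely between slides for COX7B, with −0.56, −0.65 and −0.14 on slides 1, 2 and 3, for COX7A2, with −0.82, −0.57 and −0.35, and for COX6C, with −0.51, −0.31 and −0.11. COX6A1 differed little between slides, with −0.33, −0.28 and −0.27. Without cows 5 and 6 the median of the 8 genes was −0.36 and 5 of the 8 passed by limma, COX5B being the one lost (adjusted p = 0.139).

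Much of the variation was shared across the set. Over the 12 arrays, the 28 pairs of genes had Pearson correlations from 0.473 (COX4I1 and COX6A1) to 0.931 (COX7A2 and COX7B), with a median of 0.768. The arrays carry the group difference and the scaling in common, so these values are a description. Outside the gene lists described here, the genes whose signal was most like the mean of the 8 subunits over the 12 arrays were SUCLG1 (r = 0.927), a subunit of the citric acid cycle enzyme succinyl-CoA ligase, and LAMTOR2 (0.918), a subunit of the lysosomal Ragulator complex. Next came EBP (0.915), a sterol isomerase of cholesterol synthesis, RABAC1 (0.911), which binds Rab proteins, and TIMM8B (0.910), a chaperone of mitochondrial protein import. Their REST minus CONT differences were −0.34, −0.37, −0.50, −0.62 and −0.41 in that order. The choice by likeness to the subunits favours genes that are lower in REST, so these differences are given without a test.

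Isoforms and relatives of the subunits behaved less uniformly. Of 10 such genes, 9 had a probe and 6 were measured well enough to test. NDUFA4, first described in complex I and now counted with complex IV, spanned 5.67 to 6.21 in CONT and 5.41 to 5.65 in REST, without overlap. It fell by 0.41 ± 0.08 (SE, limma, adjusted p = 0.0267; 0.0671 without the block and from 0.0212 to 0.343 over the alternatives of scaling, block and left-out cows).

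The other 5 did not pass. Without scaling COX7A1 (0.50), COX4I2 (0.49) and COX7A2L (0.52) were called higher, as were 57.9% of all tested genes. COX6B2, an isoform of COX6B1 known from testis, differed by −0.28 (limma, adjusted p = 0.124; from 0.0414 without cow 6 to 0.901 without scaling). COX7A1, the heart and muscle isoform, gave 0.20 (limma, adjusted p = 0.268), where its counterpart COX7A2 gave −0.58. COX7A2L, which takes part in joining complex IV to complex III, gave 0.23 (limma, adjusted p = 0.145; 0.0348, a call, after normexp with the 75th percentile shift, and 0.132 after normexp with quantile normalization), and COX4I2, the isoform of lung, gave 0.19 (adjusted p = 0.366), which was −0.10 and 0.03 after normexp with the shift and with quantile normalization. NDUFA4L2, a relative of NDUFA4, gave −0.06 (limma, adjusted p = 0.842), −0.24 after normexp with the shift, which was a call (0.0600), and −0.13 after normexp with quantile normalization (0.259). COX7B2 was not well above background on any array, COX8B on 1 of 6 arrays in each group, and the muscle isoform COX6A2 on 4 of 6 in CONT.

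Genes that assemble the enzyme lay nearer to the median of all genes than its subunits did, a difference that was not tested. Of 30 named assembly factors, 25 had a probe and 19 were tested. Of the 19, 15 had a lower mean in REST, against 4095 of all 7930 tested genes. Of the 19, 4 were called lower, against 9.27% of all tested genes, and the median was −0.15 against −0.01. The 4 that fell were CMC2 (−0.52 ± 0.14 SE, limma, adjusted p = 0.0561), COA3 (−0.29 ± 0.08, 0.0714), COX17 (−0.28 ± 0.08, 0.0570), which carries copper to the enzyme, and COA1 (−0.27 ± 0.09, 0.0830). Without the block their adjusted p ran from 0.101 to 0.766 by limma, so each call rests on the pairing by cow, and without scaling COA3, COX17 and COA1 were at 0.01, 0.02 and 0.03. Cytochrome c itself (CYCS), the electron donor, differed by −0.18 ± 0.20 (SE, limma, adjusted p = 0.600) and was lower in 4 of 6 cows.

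Among 14 named regulators of mitochondrial gene expression, 11 were tested, and their median was −0.05. ESRRA, a nuclear receptor that acts with PGC-1 coactivators on respiratory chain genes, spanned 1.19 to 1.94 in CONT (median 1.70) and 1.60 to 2.57 in REST (median 1.996). It rose by 0.42 ± 0.11 (SE, adjusted p = 0.0497 by limma) and was higher in 6 of 6 cows, while without the block the adjusted p was 0.257, and over the alternatives of scaling, block and left-out cows it ranged from 0.00332 to that value. PPARGC1A, which encodes PGC-1alpha, was singled out after its values were seen: it gave −0.85 ± 0.30 (SE, limma, adjusted p = 0.108; from 0.0419 without cows 5 and 6 to 0.255 without cow 2), lower in 5 of 6 cows. The 2 genes of this pair thus had opposite signs.

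**Figure D4:**
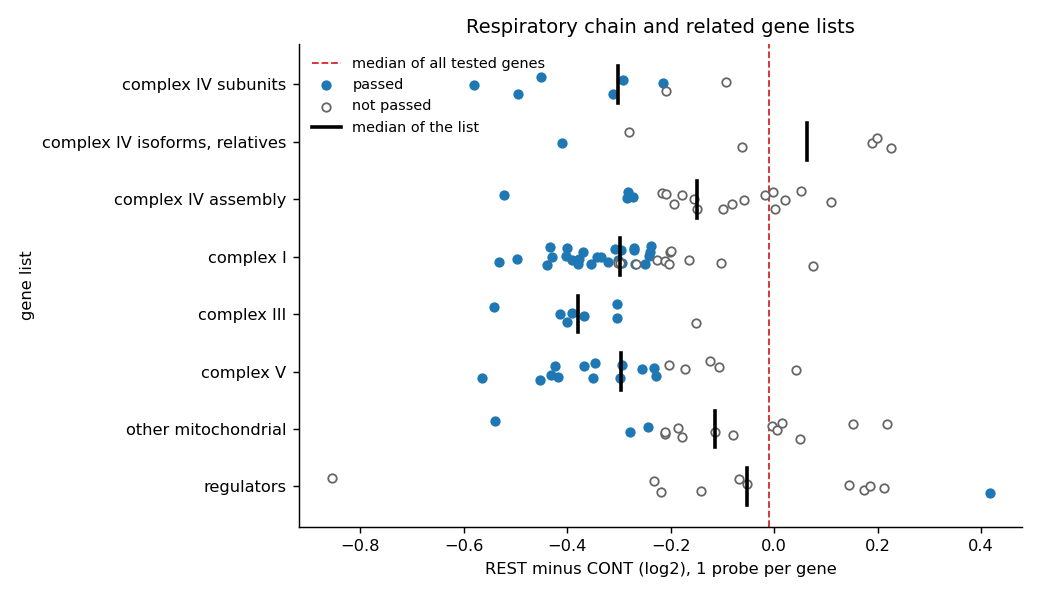
REST minus CONT difference (log2, 1 probe per gene, 75th percentile shift) of the tested genes in 8 lists of mitochondrial genes; filled points have an adjusted p under 0.1, black bars give the median of the list and the dashed line the median of all tested genes. The medians of the subunits of complexes I, III, IV and V lie between −0.38 and −0.30, and those of assembly factors, other mitochondrial genes and regulators between −0.15 and −0.05; without scaling, the median of all tested genes was 0.29 and that of the complex IV subunits −0.00.

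The subunits of the other respiratory complexes had differences of much the same size, as the plot of gene lists shows. Of complex I subunits 26 of 37 were called lower with a median of −0.30, of complex III subunits 7 of 8 with −0.38, and of ATP synthase (complex V) subunits 13 of 18 with −0.30. Among all tested genes 9.27% were called lower. The complex IV subunits, 6 of 8 with a median of −0.30, were thus not set apart from these lists, and no test between lists was made. Without the block the calls were 10 of 37, 2 of 8, 6 of 18 and, for complex IV, 3 of 8, against 2.81% of all tested genes. Normexp before the 75th percentile shift gave 10, 3, 4 and 2 in that order, against 7.36% of all tested genes. Normexp before quantile normalization gave 21, 6, 12 and 5, against 8.45%. Without scaling limma called 1, 1, 0 and 1 lower, against 2.02% of all tested genes. In that fit 1 complex I and 2 complex V subunits were called higher, against 57.9% of all tested genes, and 1 complex V subunit had an unadjusted p under 0.05. Genes of other mitochondrial functions, such as import, outer membrane channels and the citrate synthase gene, had a median of −0.11. Of these 15 genes 3 were called lower, against 9.27% of all tested genes. Quantile normalization called 1 lower and 1 higher, and without scaling 1 was called lower and 5 higher.

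Markers of the cell types in the biopsy moved in several directions, and their part in the subunit differences was not tested. Summed levels are given as multiples of the array's 75th percentile, over the probes of each list. For the 8 subunits the sum ran from 225 to 297 in CONT and from 185 to 222 in REST. The 5 milk protein genes measured, which mark secretory epithelium, summed to 4229 to 5455 in CONT and 3414 to 4479 in REST. Of the 5, 2 were called lower (CSN3 and CSN1S1), against 9.27% of all tested genes. Their median was −0.20 for the 5 genes, which quantile normalization took to 0.01. Of 7 luminal epithelial markers 3 were called higher (KRT8, KRT7 and KRT18), against 6.94% of all tested genes, and 2 had a lower mean (CLDN4 −0.17 and ELF5 −0.05), with sums of 235 to 327 and 258 to 342. The markers named in these sentences were chosen after their values were seen.

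Of 6 myoepithelial markers 2 were called lower (CNN1 and ACTA2), against 9.27% of all tested genes, while 3 of the 6 means were higher. The median was −0.04, TP63 was not well above background on any array, and the sums were 96.2 to 189 and 87.1 to 174. Among adipocyte markers FABP4 alone could be tested and was called lower (−0.35), PLIN1 was not well above background on any array, and the sums were 141 to 211 and 98.3 to 145. Of 8 leukocyte markers 2 were called higher (CD8A and CD3E), against 6.94% of all tested genes, while 4 of the 8 means were lower. The median was 0.06, MS4A1 and ITGAM were not well above background on any array, and the sums were 17.1 to 20.7 and 16.2 to 20.1.

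Of 5 endothelial markers 1, VWF (0.54), was called higher, against 6.94% of all tested genes. Of the 5 means 4 were higher, CDH5 by only 0.03, and KDR was lower (−0.15). The median was 0.13, with sums of 8.43 to 11.4 and 10.2 to 12.5. None of 6 fibroblast markers passed by limma, although the median was −0.36, with 4 means lower and 2 higher. Their sums of 34.2 to 63.9 and 26.4 to 73.5 overlapped widely. CKM was the 1 of 2 tested skeletal muscle markers called lower (−0.36), while the other had a slightly higher mean (0.02). The muscle sums were 2.44 to 3.95 and 2.01 to 3.14. The tested red cell gene HBA did not pass (−0.33, sums 13.7 to 20.1 and 10.4 to 20.4). The summed levels of the subunits, the milk protein genes, the adipocyte markers and the skeletal muscle markers were each lower in REST in 6 of 6 cows. The luminal epithelial sum was higher in 4 of 6 cows. The endothelial sum, in which VWF had the strongest signal, was higher in 6 of 6. Of the marker calls in these paragraphs, the 1 that held by limma without the cow as a block was VWF (adjusted p = 0.0541).

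**Figure D5:**
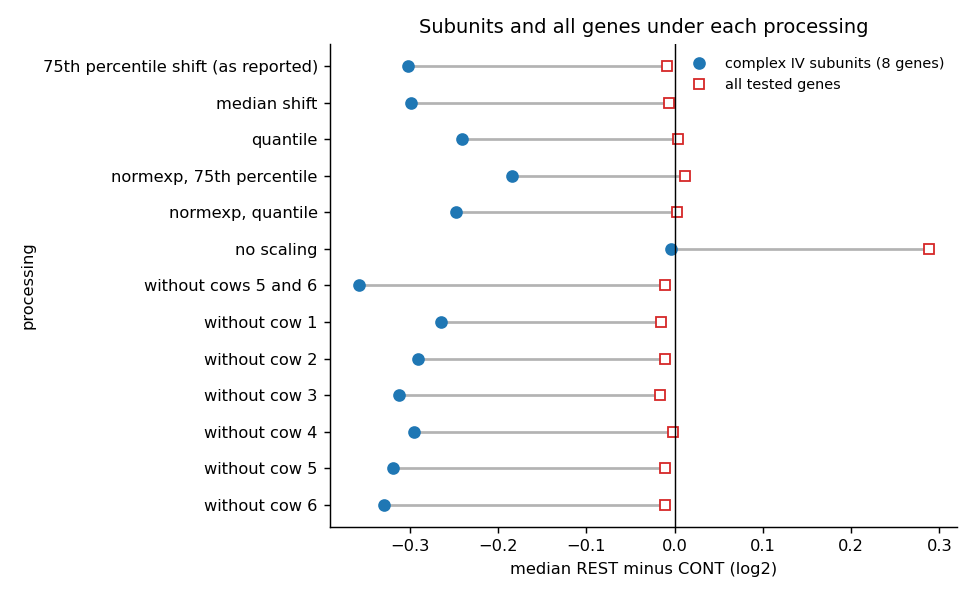
Median REST minus CONT difference (log2) of the 8 subunit genes (filled circles) and of all tested genes (open squares) under each processing of the signal and with cows left out. The subunits lie below all genes in every row shown, by 0.20 to 0.35 on the log2 scale, and without scaling both medians move up together by 0.30.

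How the arrays were brought to a common scale set the zero of all these differences. The REST array was the brighter one in all 6 cows, with a 75th percentile 0.30 ± 0.10 (SD) higher on the log2 scale. The median of the 8 subunits was −0.30 with the 75th percentile shift and −0.24 with quantile normalization. After normexp background correction it was −0.18 with the 75th percentile shift and −0.25 with quantile normalization. With no scaling it was −0.00, where all tested genes had a median of 0.29. The shift moves every gene of an array alike, so the distance of the subunits from all tested genes, −0.29, is by construction the same with it and without scaling. That distance was −0.24 with quantile normalization, −0.20 with normexp and the 75th percentile shift and −0.25 with normexp and quantile normalization, as the plot of medians under each processing shows. With normexp and the 75th percentile shift COX6B1 and COX7A2 still passed by limma and the other 6 genes did not.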

How the data were processed

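Per the file headers and labels, the authors hybridized Cy3-labelled RNA to Agilent arrays and read the intensity of each spot from the scans with Agilent Feature Extraction (version 11.0.1.1). The deposited scanner files and series table hold the same background-subtracted intensity of each spot on a linear scale, equal in all 45220 cells of each array, with no scaling between arrays. The methods of the study name a 75th percentile shift, a moderated test with Benjamini-Hochberg adjustment and a threshold of 0.1, and do not say whether cows were paired.

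Here the deposited intensity was log2-transformed and shifted by each array's 75th percentile over spots that are not controls. Outlier spots (1 to 13 per array) were left out, and repeat spots of 50 probes were averaged. Symbols came from RefSeq accessions (27131 of 43653 probes, 62.2%). The test took the 19403 probes that the scanner software marked as well above background on all 6 arrays of CONT, of REST or of both. For REST against CONT, limma 3.58.1 (lmFit, eBayes; R 4.3.3) was fitted with cow as a fixed block, and p-values were adjusted over all tested probes; tests are two-sided. Each gene was represented by its tested probe of highest mean signal. The animal names in the labels gave the pairing. Deviations of the arrays from their group means correlated at 0.356 to 0.574 within a cow and at −0.326 to 0.135 between cows. The fit was tested on simulated data. Python 3.11.15 with pandas 2.3.3 and matplotlib 3.10.9 made tables and plots.

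The subunits and all gene lists were chosen with earlier results of these data known. The rule for naming genes outside the subunits took the tested isoforms, up to 4 called assembly factors and regulators each, CYCS and the 5 genes most like the subunits; PPARGC1A, the untested isoforms and the cell type markers were named beyond it, after their values were seen. Lists were described by counts and medians. Alternatives changed the block, scaling, background correction, filter, moderation and probe choice, and left out each cow; no scaling, leaving out slide 3 and the comparisons of subunit pairs were added after the data were seen. No probe sequences or genome positions were used here. Precision is limited by the 6 cows.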

Additional observations from a re-analysis of the deposited data

Results flagged for a closer look

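The REST array of cow 4 stood apart for COX7B. Its normalized signal was 3.74, against 4.11 to 4.20 on the other 5 REST arrays, so that the gap to the nearest array made up 0.814 of the range of the group, above Dixon's critical value of 0.625 for 6 samples. Of the 16 groups examined (8 genes in 2 periods) this was the 1 past the critical value, and chance gives about 1 in 20, or 0.8 here. Without cow 4 the COX7B difference was −0.37 and its adjusted p by limma was 0.115. The call was lost as well without cow 1 (0.109 by limma) or cow 2 (0.120), whose arrays did not stand apart, and over the alternatives run it ranged from 0.0110 to 0.306.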

How the results depend on the processing

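Dropping the cow as a block left the median of the 8 subunits at −0.30 and took the subunits called lower from 6 to 3 and the probes called in either direction from 3104 to 836; this pairing changed the subunit calls of COX5B, COX6A1 and COX6C. The t-test of the methods, taken without moderation or pairing, gave 3 subunits and 722 probes, the slide as a block 1898 probes and the paired test without moderation 1852. Normexp with the 75th percentile shift called 2 subunits and turned COX4I1 to 0.041, whereas normexp with quantile normalization called 5 and left COX4I1 at −0.095. With no filter on dim probes, where 43653 probes were tested, limma called 388 probes and 0 subunits, although 7 of the 8 subunits had an unadjusted p under 0.05 there as in the reported fit. Leaving out each cow in turn gave 2 to 5 subunits (2 without cow 1, 2 without cow 2 and 3 without cow 4) and 1045 to 3291 probes, with the median of the subunits between −0.33 and −0.26. COX7A2 and COX6B1 kept their call in each of these fits except that without a filter (adjusted p = 0.106 for both by limma).

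With no scaling between arrays 1 subunit and 11727 probes were called, the subunit median was −0.0044, and COX4I1 (0.204), COX5B (0.082), COX6A1 (0.0044) and COX8A (0.089) lay above 0. COX7A2 was the subunit called there, and COX6B1 missed the threshold (adjusted p = 0.125). Which scaling is closer to the RNA per cell was not tested. Quantile normalization, with or without normexp, left 0 of the 28 subunit pairs different, with 8 at the smallest p of the exact test. COX8A passed in 4 alternatives.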
